A study of Homo sapiens with 6 samples.

Results

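The 239 protein-coding genes described here carry a ZNF symbol followed by a digit and lie outside chromosome 19, the chromosome that holds the densest clusters of this family. They were chosen by symbol and by the chromosome given for each gene in the deposited count table, and make up 239 of the 15376 rows of the coding gene table. The rule used no measure of how they responded, but it was chosen with earlier results of these data known. A further 242 ZNF genes lie on chromosome 19 and serve below as the most alike list. Expression was measured by RNA-seq in cultures of PC9ER, an EGFR-driven lung cancer line of the non-small cell type that resists gefitinib. Controls received DMSO, and the other group received gefitinib, an inhibitor of the EGFR tyrosine kinase, at 1 µM for the final 6 h, with 3 libraries in each group. By the labels' protocols, cells grew in medium with 10% FCS, had 72 h of a Notch inhibitor or of its DMSO vehicle, and were serum-starved overnight before gefitinib. The libraries labelled with gefitinib alone are read here as having had the vehicle, like the controls. It does not say whether the controls were starved in the same way, nor whether the cells are a single clone or the libraries separate cultures. The p-values below therefore measure only the spread between these libraries, which may be technical.

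Most ZNF proteins bind DNA through tandem C2H2 zinc fingers, in which each finger contacts a few bases and the order of fingers sets the sequence that is bound. Many carry a KRAB domain at the N-terminus, which recruits the corepressor TRIM28 and through it the histone H3 lysine 9 methyltransferase SETDB1, and are best known for silencing retrotransposons. Others carry a SCAN domain, through which they pair with each other, and a smaller number hold a few fingers in proteins with unrelated tasks in splicing, ribosome assembly or the spindle.

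After gefitinib, 84 of these genes (35.3% of those tested) had higher RNA and 57 (23.9%) had lower RNA, where 28.3% and 22.8% of all genes did, and 97 did not pass the threshold. The test was limma, with a Benjamini-Hochberg adjusted p under 0.05 over all 15229 genes with a read in any library, and every log2 difference is on the log2(value + 1) scale. ZNF654, ZNF184 and ZNF148 rose, by 5.74-fold, 4.19-fold and 3.02-fold, and ZNF710, ZNF165, ZNF41 and ZNF704 fell, by 5.08-fold, 4.55-fold, 4.26-fold and 2.81-fold. Genes of the KRAB and SCAN classes were called higher more often than lower, at 42 against 23 (41.2% and 22.5%) and 9 against 3 (47.4% and 15.8%). Those with fingers alone split evenly, at 31 and 31 (29% each). Of the 6 ZNF genes that lie close together near 3.1 Mb on chromosome 16, all 6 rose. The gene for TRIM28, the partner that KRAB domains recruit, rose by 1.22 on the log2 scale, and SETDB1 fell by 0.56. In bulk RNA a lower value can come from fewer cells of a kind or from less RNA per cell, and these cannot be told apart here.

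The libraries held 13674237 to 38581498 coding reads. The deposited values, called normalised reads below, are these reads after scaling that brings every library to 18085800. Depth allowed detection of most of the family, since 230 to 235 of the 239 genes had at least 1 read in a library. ZNF648 had no read in any library, so 238 genes were tested. The genes took 0.554, 0.536 and 0.523% of coding reads in the control libraries and 0.557, 0.573 and 0.574% in the gefitinib libraries, so the groups did not overlap but lay close together. All 6 epithelial markers examined (EPCAM, CDH1, KRT7, KRT8, KRT18 and KRT19) were abundant, with a summed normalised read count of 81340 to 116600 in controls and 67730 to 70680 after gefitinib. Of these, EPCAM rose after gefitinib and the other 5 fell (limma). Among controls, replicate 1 gave the lowest sum, with the lowest KRT7, KRT8, KRT18 and KRT19 and the highest CDH1 and EPCAM. Of the lung markers, NAPSA and SFTPB lay between 4.23 and 25.7, and NKX2-1 was not analysed here. The blood markers PTPRC, CD3E and CD68 stayed at or below 5.42, and of the fibroblast markers COL1A1 lay between 31.7 and 70.5 with COL1A2 and PDGFRB at or below 2.23. The epithelial sum moved with the groups, and its part in the results was not tested.

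The share of ZNF genes called in either direction was 59.2%, beside a background of 51.1% of all genes tested. The share called lower sat near the background. The background includes many genes with hardly any reads, and among genes with a mean value of 10 or more the shares called were closer, at 65.3% beside 61.4%, with 38.8% beside 33.4% higher and 26.5% beside 28% lower. Calls of at least 2-fold numbered 43 higher and 29 lower, where 12.4% and 9.92% of all genes passed the same rule. In 159 of the 238 genes the control and gefitinib libraries did not overlap, against 58.0% of all genes. The median log2 difference was 0.17, with quartiles at -0.50 and 0.84 and a range from -3.31 to 3.36, and the median of all genes tested was 0.10. With TMM scaling both medians were smaller, at 0.106 and 0.049, and on reads recovered from the deposited values edgeR gave 0.062 and 0.005. Among the 20 genes with a mean value under 10, 19 were tested and 2 were called, both higher. On chromosome 19, 119 of 241 tested ZNF genes rose and 28 fell, with a median of 0.58.

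**Figure D1:**
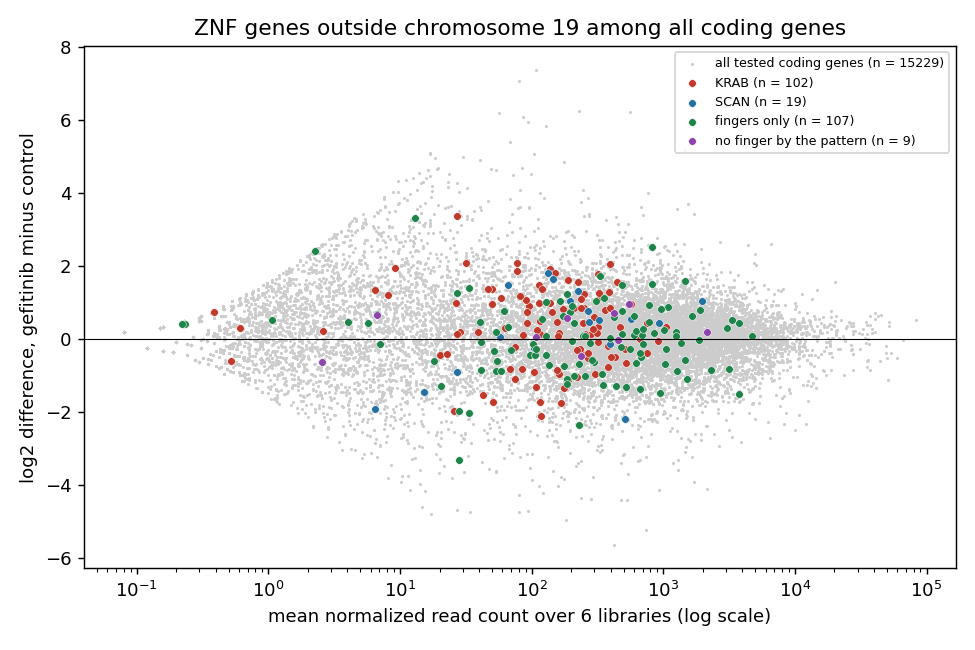
Each point is a coding gene, placed by its mean normalised read count over the 6 libraries (log axis) and its log2 difference, gefitinib minus control. The coloured ZNF genes run from -3.31 to 3.36 and lie on both sides of 0 in the KRAB, SCAN and fingers-only classes.

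ZNF654, a gene with 5 predicted fingers at chr3:88059274-88144665 (GENCODE v29 annotation of GRCh38), had the largest rise among genes with a mean normalised read count of 50 or more. Its control libraries held 293, 226 and 220.1 normalised reads and its gefitinib libraries 1325, 1468 and 1435. Every gefitinib library lay far above every control, a difference of 2.52 ± 0.13 (SE, log2) with an adjusted p of 1.6e-06 by limma. ZNF184, a KRAB gene with 19 fingers at chr6:27450743-27473118, went from 186, 125 and 150 to 589, 637 and 693. The groups were again well apart, by 2.07 ± 0.17 (adjusted p = 1.24e-05 by limma). ZNF148, which encodes the GC-rich element binding factor also called ZBP-89, lies at chr3:125225561-125375354. It held 774, 701 and 722 in controls and 2365, 2096 and 2189 after gefitinib. Its libraries agreed closely within each group, and the difference was 1.60 ± 0.09 (adjusted p = 2e-06 by limma).

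ZNF10, also known as KOX1, is the gene whose KRAB domain is used in CRISPR interference repressors. Its values were 137, 83.7 and 68.5 in controls and 261, 291 and 298 after gefitinib, with control replicate 1 the highest control and still below every gefitinib library. The difference was 1.60 ± 0.25 (adjusted p = 0.000563 by limma), and 10.3% of the 50-base stretches (words) of its longest transcript also occur in other genes, so some of its reads are uncertain. ZNF445, a SCAN and KRAB gene that helps to maintain imprinting, rose from 57.1, 65.8 and 84.9 to 151, 238 and 278. The lowest of its gefitinib libraries was replicate 1, as it also was for ZNF425 and ZNF589. The other genes among the 12 largest rises were ZNF596 (2.07), ZNF589 (1.91), ZNF425 (1.86), ZNF74 (1.82), ZNF197 (1.81), ZNF92 (1.79) and ZNF275 (1.74), as log2 differences. Their adjusted p ran from 2.66e-05 for ZNF275 to 0.000882 for ZNF425. Of these 12, 9 carry a KRAB domain, 2 of those (ZNF197 and ZNF445) together with a SCAN domain. Among all 239 genes KRAB is common as well, with 102 that carry it without SCAN and 13 that carry both. Whether the largest rises held more KRAB genes than that share was not tested.

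ZNF704 was among the most abundant of the genes that fell. It lies at chr8:80628451-80874781 and encodes a protein with 1 finger by the pattern used. Its control libraries held 5489, 5702 and 5510 normalised reads and its gefitinib libraries 1885, 1938 and 2117. The replicates lay close together in both groups, 1.49 ± 0.08 apart on the log2 scale (adjusted p = 1.57e-06 by limma). ZNF165, a SCAN gene at chr6:28080975-28089563 known as a cancer-testis antigen, went from 964, 805 and 759 to 251, 183 and 134, a fall of 2.18 ± 0.21 (adjusted p = 3.77e-05 by limma). ZNF41, a KRAB gene with 17 fingers at chrX:47445879-47482946, went from 210.2, 168 and 199 to 46.3, 45.2 and 41.3. Its 3 gefitinib libraries were nearly equal, and it fell by 2.09 ± 0.20 (adjusted p = 3e-05 by limma).

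ZNF710 had the largest fall at these levels, 2.34 ± 0.25 on the log2 scale (adjusted p = 5.99e-05 by limma). Its controls held 254, 427 and 468, with replicate 1 well below the others, and its gefitinib libraries 80.7, 76.8 and 60.5. Of its exon bases, 16.1% lie opposite exons of another gene, and without knowing whether the counting used strand, reads of the 2 genes cannot be told apart. ZNF143, an activator of small nuclear RNA genes and of many protein-coding promoters, lies at chr11:9460319-9528524. It was at 1409, 1353 and 1286 in controls and at 832, 466 and 291 after gefitinib. All 3 gefitinib libraries were below the controls but spread widely, and the fall of 1.48 ± 0.30 had an adjusted p of 0.00287 by limma. Its close paralog ZNF76, named after its values were seen, was at 949, 1393 and 1467 in controls and 1016, 727 and 618 after gefitinib. Control replicate 1 lay below gefitinib replicate 1, so its groups overlapped, and its fall of 0.69 ± 0.21 (adjusted p = 0.0197 by limma) missed the threshold without control replicate 2 or 3 or gefitinib replicate 2 or 3 (adjusted p from 0.0535 to 0.0761 by limma).

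The remaining large falls were those of ZNF248 (-1.75), ZNF860 (-1.71), ZNF747 (-1.71), ZNF407 (-1.38), ZNF300 (-1.34), ZNF891 (-1.32) and ZNF488 (-1.31). ZNF488 encodes a partner of OLIG2 in oligodendrocyte development, and its libraries went from 583, 826 and 838 to 294, 331 and 272. ZNF407, with 23 fingers, went from 948, 961 and 985 to 487, 359 and 293. In both genes the lowest control exceeded the highest gefitinib library. ZNF747 shares 32.6% of its 50-base words with other annotated genes, so its reads are less certain. In all 24 genes with the largest changes the call held in each of the 20 other analyses.

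**Figure D2:**
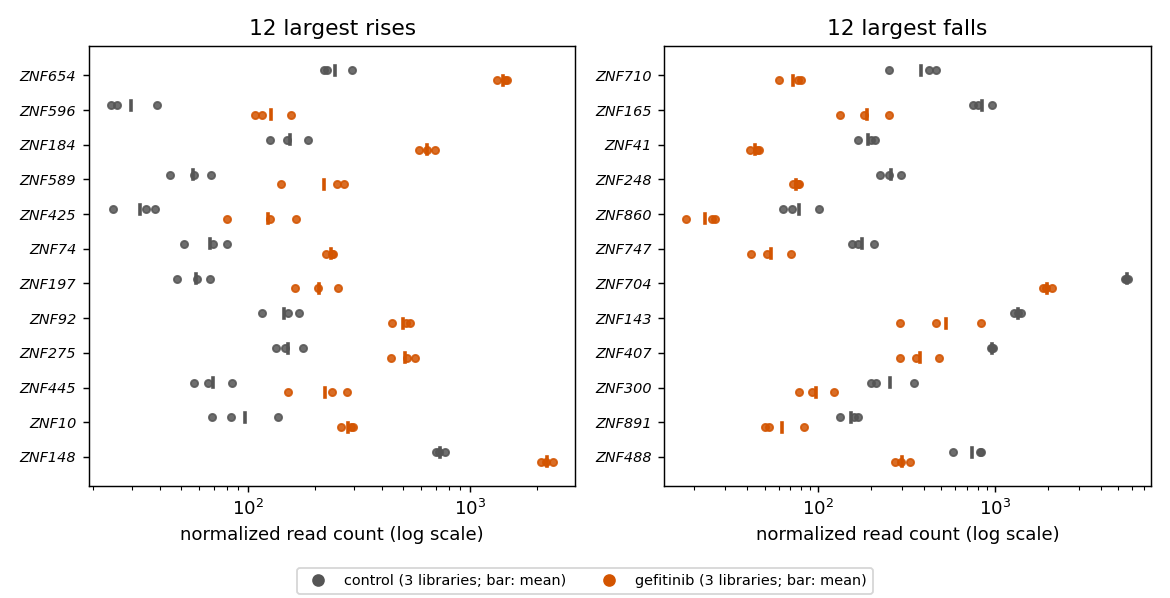
Normalised read counts (log axis) of the 12 ZNF genes with the largest rises and the 12 with the largest falls, with 1 point per library and a bar at each group mean. By the rule that chose them, the control and gefitinib points of these 24 genes do not overlap, and ZNF143 shows the wide spread of its gefitinib libraries, from 291 to 832.

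Outside the level limit, the most extreme log2 differences rested on few reads. ZNF619 went from 14 reads over the 3 controls to 222 over the 3 gefitinib libraries, ZNF385C from 4 to 115, and ZNF469 from 165 to 20. All 3 passed the threshold, and the libraries of the 2 groups did not overlap. ZNF618 had 0 reads in each control and 19 over the gefitinib libraries, and was called higher. ZNF658 was called higher on 11 and 61 reads, but 67.9% of its 50-base words occur in other genes. These 5 were named after their values were seen.

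Among genes with well studied roles, ZNF217 and ZNF281 fell, ZNF24 rose and several others did not pass. ZNF217 is a gene of the 20q13 region amplified in breast and other cancers, and its protein works in a corepressor complex with KDM1A and CTBP proteins. At chr20:53567065-53609907, it held 4143, 3984 and 3899 normalised reads in controls and 2114, 2360 and 2398 after gefitinib. The groups were far apart and the fall was 0.81 ± 0.08 (adjusted p = 3.78e-05 by limma). ZNF281, a regulator of pluripotency and of the epithelial to mesenchymal transition, went from 1914, 1663 and 1668 to 1247, 1224 and 1064, a fall of 0.57 ± 0.10 (adjusted p = 0.00112 by limma). ZNF24, a SCAN gene that represses VEGFA, went the other way, from 1389, 1294 and 1165 to 2237, 2856 and 2819, a rise of 1.03 ± 0.12 (adjusted p = 7.76e-05 by limma).

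Among genes for proteins that act on ribosomes, viral DNA or the spindle, ZNF622 and ZNF638 rose and the others did not pass. ZNF622, a factor of large ribosomal subunit maturation, rose from 715, 717 and 653 to 1241, 1204 and 1226, or by 0.82 ± 0.09 (adjusted p = 6.38e-05 by limma). ZNF638, which silences unintegrated retroviral DNA together with the HUSH complex, rose by 0.43 ± 0.09 (adjusted p = 0.00361 by limma). ZNF207, the spindle factor BuGZ, held 4730, 4583 and 4484 in controls and 5226, 4839 and 4614 after gefitinib. Its groups overlapped, and its difference of 0.09 ± 0.08 did not pass (adjusted p = 0.369 by limma). ZNF598, the ubiquitin ligase of collided ribosomes, differed by 0.08 ± 0.24, and ZNF593, another ribosome assembly factor, by -0.28 ± 0.26. All exon bases of ZNF593 lie opposite another gene's exons, so its reads are uncertain. ZNF703, amplified with the 8p region in breast cancer, differed by -0.03 ± 0.18, and ZNF185, an actin-associated LIM protein, by 0.21 ± 0.11. The groups overlapped in these 4 genes. ZNF521 had no control read and 3 reads after gefitinib, ZNF365 stayed at or below 8.92 normalised reads, and ZNF423 was not analysed here.

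Levels can be compared between genes only per length. Per kilobase of annotated exon, averaged over the 6 libraries, ZNF622 was highest at 565 normalised reads, followed by ZNF664 at 526, ZNF217 at 509.6, ZNF185 at 450.1 and ZNF644 at 401. ZNF644, named after its values were seen and a partner of the histone methyltransferases G9a and GLP, was called higher at 0.30 ± 0.11, but the call was lost in 10 of 20 other analyses. By the deposited value itself, which grows with transcript length, ZNF207, ZNF704, ZNF638, ZNF664 and ZNF217 were the top 5. ZNF664, with 9 fingers, rose from 2836, 2722 and 2649 to 3312, 4125 and 4366, or by 0.51 ± 0.11 (adjusted p = 0.00304 by limma).

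Grouped by protein domain, 102 genes encode KRAB proteins without SCAN, 19 encode SCAN proteins (13 of them with KRAB), 108 have C2H2 fingers alone and 9 have neither domain and no finger by the pattern used. ZNF670-ZNF695, a readthrough locus, has no complete protein in the annotation used. Of the KRAB genes, 42 rose (41.2%) and 23 fell (22.5%), where 28.3% and 22.8% of all genes did. Their median log2 difference was 0.30, and 24 of the rises and 11 of the falls reached 2-fold. Of the 19 SCAN genes, 9 rose (47.4%) and 3 fell (15.8%), with a median of 0.47. Those with KRAB as well gave 7 rises and 1 fall out of 13, and those without gave 2 and 2 out of 6. Of the 107 tested fingers-only genes, 31 rose and 31 fell (29% each). The share that fell was above the 22.8% of all genes, but near the 28% of genes with a mean value of 10 or more. The median of the fingers-only genes was 0.08, close to that of all genes. KRAB genes on chromosome 19 gave 108 rises and 19 falls among 206 tested (52.4% and 9.22%). Their median was 0.64, on the same scale and from the same libraries. These are counts side by side, and no difference between classes was tested.

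Within the KRAB class, the smallest p belonged to ZNF184, ZNF107 and ZNF41, of which the first 2 rose and ZNF41 fell. Within the SCAN class they belonged to ZNF165, ZNF24 and ZNF197, which went down, up and up. Among the fingers-only genes ZNF704, ZNF654 and ZNF148 led. Of the 9 genes with neither domain and no finger by the pattern, ZNF330 rose by 0.72 ± 0.13 (adjusted p = 0.0014 by limma) and ZNF720 by 0.95 ± 0.14 (adjusted p = 0.000386 by limma). ZNF503, the next by p, lay at -0.45 ± 0.18 and did not pass (adjusted p = 0.0681 by limma).

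**Figure D3:**
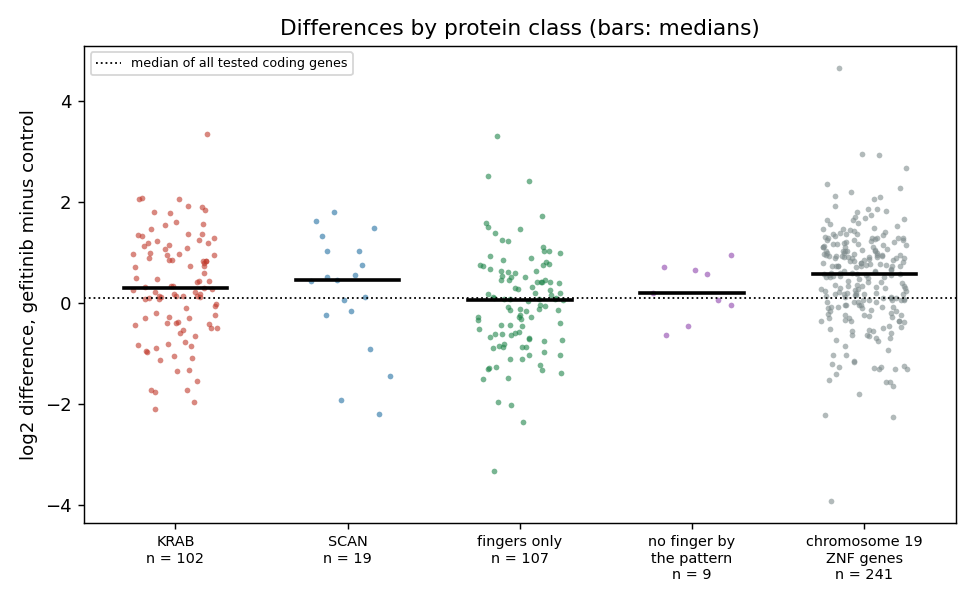
Log2 differences, gefitinib minus control, of single genes in each protein class and of the chromosome 19 ZNF genes, with a bar at each median and a dotted line at the median of all genes, 0.10. The medians are 0.30 for KRAB, 0.47 for SCAN, 0.08 for fingers only and 0.58 for chromosome 19.

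The proteins held a median of 9 fingers and at most 33. The split of calls did not follow the number of fingers in order. The 11 genes with no finger by the pattern, the 9 above and the KRAB genes ZNF487 and ZNF862, gave 3 rises and no fall (median 0.21). Genes with 1 to 3 fingers gave 8 rises and 9 falls among 29 (27.6% and 31%, median -0.12). Those with 4 to 6 gave 18 and 10 among 42 (42.9% and 23.8%, median 0.43). Those with 7 to 9 gave 15 and 12 among 54 (27.8% and 22.2%, median 0.15). Genes with 10 to 12 fingers gave 21 and 15 among 51 tested (41.2% and 29.4%, median 0.30). Those with 13 to 15 gave 7 and 3 among 23 (30.4% and 13%, median 0.16). Those with 16 or more gave 12 and 8 among 27 (44.4% and 29.6%, median 0.45). Of all genes, 28.3% rose and 22.8% fell, and no difference between these sets was tested. The GC content of the longest annotated transcript had a median of 43.1% in genes that rose, 44.4% in genes that fell and 47.2% in the rest. With a GC trend removed from each library, 92 genes were called higher (38.7%, beside 32.2% of all genes). In the same setting 63 were called lower (26.5%, beside 26%).

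Many ZNF genes sit near one another. A run was taken as 3 or more of these genes on a chromosome with starts no more than 500 kb apart, which gave 20 runs with 105 genes. In runs, 46 genes rose (43.8%) and 17 fell (16.2%), with a median of 0.44. Outside them 38 rose (28.6%) and 40 fell (30.1%), with a median of 0.06, where 28.3% of all genes rose and 22.8% fell. Of all genes with a mean value of 10 or more, 33.4% rose and 28% fell. Among 85 pairs of the ZNF genes that follow one another within runs, both genes were called in 31 pairs. Of those, 18 had 2 rises, 1 had 2 falls and 12 went in opposite directions. Other genes can lie between the 2 of a pair. Whether pairs moved alike beyond the shares of rises and falls in runs was not tested. Neighbours can share sequence and annotation as well as position, and no difference between the 2 sets was tested.

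The 6 genes near 3.1 Mb on chromosome 16 (ZNF205, ZNF213, ZNF200, ZNF263, ZNF75A and ZNF174) all rose, by 0.44 for ZNF263 to 1.33 for ZNF213 on the log2 scale. ZNF174, a SCAN gene, went from 116, 142 and 129 to 268, 258 and 268, and ZNF200 from 526, 431 and 449 to 841, 726 and 629. In all 6 genes the control and gefitinib libraries were apart. The calls of ZNF205, ZNF213 and ZNF75A depended on single libraries, since without gefitinib replicate 3 the adjusted p rose to 0.0582, 0.0501 and 0.0689. ZNF205 also lost its call without gefitinib replicate 2 (0.0644), and ZNF75A without gefitinib replicate 2 (0.0638) or control replicate 2 (0.0689), all by limma. Opposite-strand exons cover 33.1% of ZNF263, 17.1% of ZNF205 and 14.2% of ZNF75A.

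In the run of 10 near 149.1 Mb on chromosome 7, 6 genes rose and 1 fell. ZNF425, ZNF777, ZNF862, ZNF746, ZNF786 and ZNF212 rose, by between 0.97 and 1.86. ZNF746, which encodes the parkin substrate PARIS, went from 166, 192 and 210.4 to 402, 463 and 504, with the groups well apart. ZNF783, between ZNF212 and ZNF777, fell by 1.12 ± 0.16 (adjusted p = 0.000399 by limma), from 287, 264 and 226 to 114, 127 and 113. ZNF398 (0.15), ZNF282 (-0.20) and ZNF467 (-0.12) did not pass.

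In the run of 8 near 64.0 Mb on chromosome 7, ZNF92 (1.79), ZNF107 (1.30), ZNF680 (1.11), ZNF273 (0.99) and ZNF138 (0.86) rose and none fell. ZNF107 went from 243, 215 and 218 to 526, 544 and 597, and ZNF92 from 169, 151 and 115 to 443, 535 and 512. Both were higher in every gefitinib library than in any control. ZNF736 (-0.29), ZNF117 (0.09) and ZNF727 (0.31), the last with at most 2.71 normalised reads, did not pass. In the run of 6 near 44.4 Mb on chromosome 3, ZNF852, ZNF197, ZNF445 and ZNF35 rose, and ZNF502 (0.32) and ZNF501 (-0.08) did not pass. The call of ZNF35 (0.55 ± 0.18, adjusted p = 0.0279 by limma) was lost in 8 of 20 other analyses, among them the removal of any 1 library other than control replicate 1.

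The run of 7 near 132.9 Mb at the end of chromosome 12 split, with ZNF605 (0.85), ZNF140 (0.81) and ZNF10 (1.60) higher and ZNF26 (-0.49), ZNF268 (-0.65) and ZNF891 (-1.32) lower. ZNF84 lay at -0.28 and did not pass. The starts of ZNF891 and ZNF10 face away from each other, with 102 bases between their annotated positions, and the pair moved in opposite directions. ZNF891 went from 169, 160 and 134 to 83.3, 53.3 and 50.6 while ZNF10 rose 3.04-fold. Of the 5 head-to-head pairs of these genes with starts within 1000 bases, this was the single pair with both genes called. In the pair ZNF425 and ZNF398, with 70 bases between starts, ZNF425 rose by 1.86 and ZNF398 lay at 0.15. ZNF26 lost its call without gefitinib replicate 1 (adjusted p = 0.0506 by limma) or gefitinib replicate 3 (0.0862).

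The largest run, 14 genes near 30.4 Mb on chromosome 16, held 2 rises, 4 falls and 8 genes that did not pass. ZNF720 (0.95) and ZNF768 (0.77) rose, and ZNF747 (-1.71), ZNF785 (-1.08), ZNF764 (-0.82) and ZNF48 (-0.72) fell. ZNF629 showed how far replicates could disagree, with 66.3, 90.4 and 125 in controls and 72.7, 304 and 453 after gefitinib. Its gefitinib replicate 1 lay among the controls, and its difference of 1.24 ± 0.58 did not pass (adjusted p = 0.102 by limma). Without that library it did (adjusted p = 0.00195 by limma), as it did with all libraries in edgeR (adjusted p = 0.0196). ZNF48 lost its call without control replicate 3 (adjusted p = 0.0524 by limma). ZNF771 (0.21), ZNF688 (-0.22), ZNF689 (-0.28), ZNF668 (0.08), ZNF646 (0.46), ZNF843 (0.47) and ZNF267 (-0.06) were the others, of which ZNF646 passed in 6 of 20 other analyses.

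In the run of 6 near 246.9 Mb on chromosome 1, ZNF669 (0.74) and ZNF124 (0.96) rose, though the call of ZNF124 was lost in 9 of 20 other analyses. ZNF669 lost its call without control replicate 2 (adjusted p = 0.0568 by limma) or gefitinib replicate 3 (0.0678). ZNF496 (0.77), ZNF670 (0.48), ZNF695 (0.19) and ZNF670-ZNF695 (-0.11) did not pass, though ZNF496 did in 8 of 20 other analyses (adjusted p = 0.0278 with edgeR) and ZNF670 in 6. In the run of 6 near 144.7 Mb on chromosome 8, ZNF250 (1.23) and ZNF7 (0.45) rose and ZNF251 (-1.04) fell, while ZNF34 (0.51), ZNF517 (0.14) and ZNF16 (0.11) did not pass, though ZNF34 did in 6 of 20 other analyses. ZNF7 lost its call without control replicate 2 (adjusted p = 0.0561 by limma), gefitinib replicate 2 (0.0736) or gefitinib replicate 3 (0.0687).

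**Figure D4:**
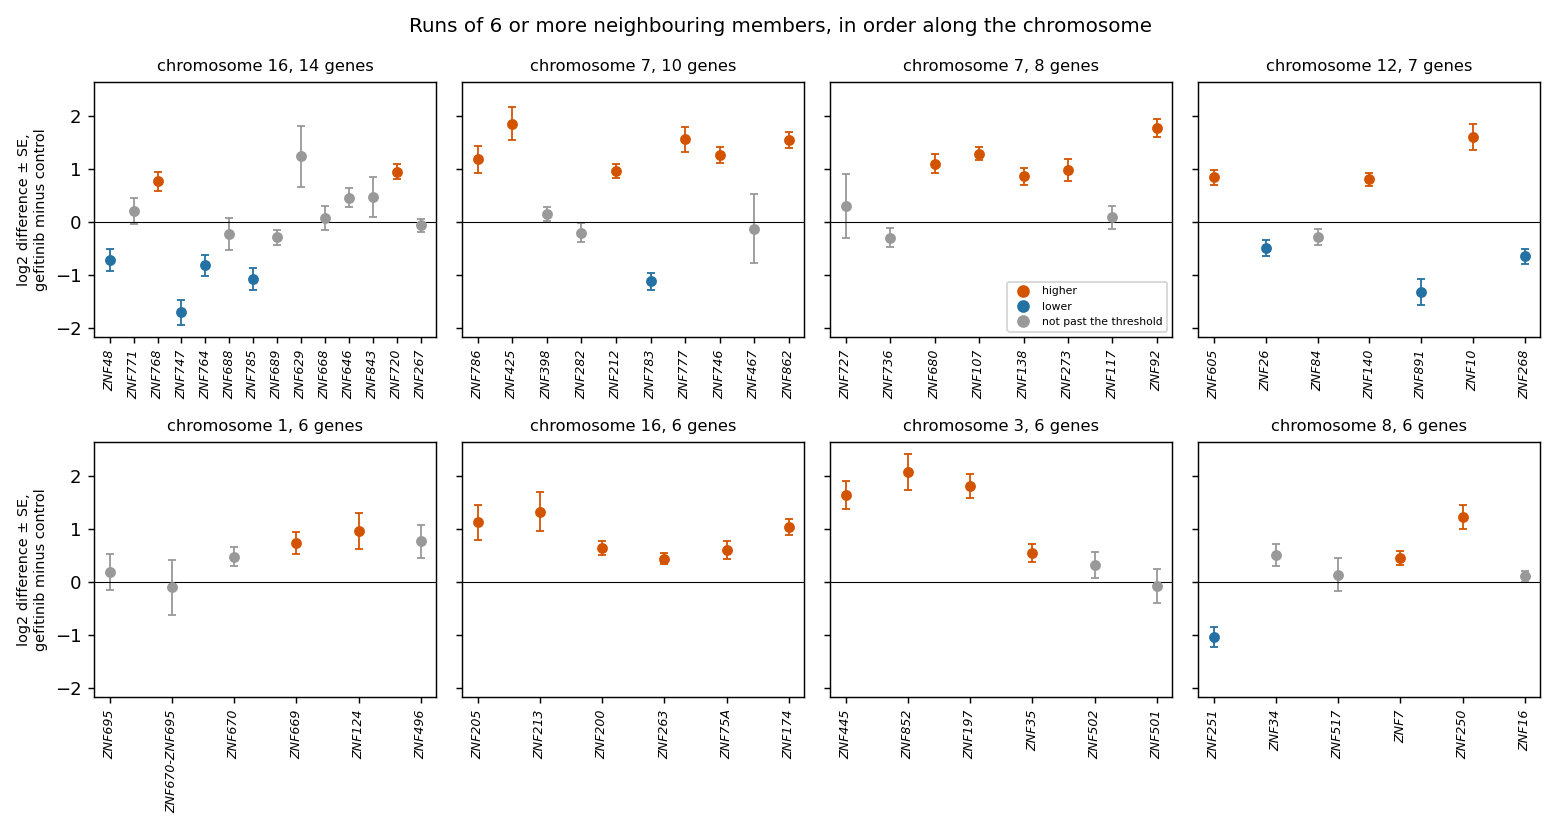
Log2 differences, gefitinib minus control, with SE bars, for the genes of the 8 runs of 6 or more, in order along each chromosome and coloured by call. The 6 genes near 3.1 Mb on chromosome 16 (lower row, second panel) all lie above 0, from 0.44 to 1.33, whereas the chromosome 12 run holds 3 genes higher and 3 lower.

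Promoter sequence was compared because in some runs every called gene rose. Windows of 300 bases, from 250 before to 50 after the start, were available from RefSeq (GRCh38.p14) for 194 of the genes. The ETS core ccggaag, read on both strands so that cttccgg counts as well, occurred in 71 of the 194 windows, or 36.6%. It occurred in 17.0% of the windows of all coding genes in the table and in 45.0% of those of the chromosome 19 ZNF genes. Its share was 37.7% in genes that rose, 30.4% in genes that fell and 39.7% in genes that did not pass. The share was lowest in genes that fell, and no difference between these sets was tested. The windows below were picked singly and do not stand for all genes that rose or fell, whose shares are given above. They are shown because they cover 2 genes of 1 run that rose (ZNF92 and ZNF107, with other members between them), a gene of another chromosome that rose more (ZNF184) and 3 genes that fell. They lie at chr6:27473056-27473355 (ZNF184, minus strand), chr7:65373605-65373904 (ZNF92, plus), chr7:64665883-64666182 (ZNF107, plus), chr11:9460762-9461061 (ZNF143, plus), chrX:47483173-47483472 (ZNF41, minus) and chr20:53593790-53594089 (ZNF217, minus). RefSeq starts differ from the GENCODE gene starts. For ZNF41 the GENCODE start lies downstream of the RefSeq start, and the window lies wholly outside the gene position printed above. GENCODE starts lie 693 bases upstream for ZNF143 and 16068 upstream for ZNF217, so those windows lie inside the gene positions printed above. Each is printed 5′ to 3′ on the gene's strand, with the ETS core or its reverse complement in capitals.
ZNF184: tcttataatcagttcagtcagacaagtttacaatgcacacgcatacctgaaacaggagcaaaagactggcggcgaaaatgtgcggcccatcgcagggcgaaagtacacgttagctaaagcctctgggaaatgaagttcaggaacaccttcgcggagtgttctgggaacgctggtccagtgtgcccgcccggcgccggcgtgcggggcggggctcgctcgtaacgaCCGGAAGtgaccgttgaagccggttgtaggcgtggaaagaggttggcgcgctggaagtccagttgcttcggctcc
ZNF92: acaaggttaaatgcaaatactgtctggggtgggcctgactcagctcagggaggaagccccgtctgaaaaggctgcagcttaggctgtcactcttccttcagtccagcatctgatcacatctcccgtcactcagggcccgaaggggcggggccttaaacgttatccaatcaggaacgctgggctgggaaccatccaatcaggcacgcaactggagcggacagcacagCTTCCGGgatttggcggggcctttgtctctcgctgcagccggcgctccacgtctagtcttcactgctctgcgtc
ZNF107: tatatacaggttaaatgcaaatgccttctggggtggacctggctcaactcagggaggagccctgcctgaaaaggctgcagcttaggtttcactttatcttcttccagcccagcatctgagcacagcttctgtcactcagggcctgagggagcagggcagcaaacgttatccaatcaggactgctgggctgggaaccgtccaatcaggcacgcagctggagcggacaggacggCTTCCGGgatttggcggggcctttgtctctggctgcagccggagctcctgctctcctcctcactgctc
ZNF143: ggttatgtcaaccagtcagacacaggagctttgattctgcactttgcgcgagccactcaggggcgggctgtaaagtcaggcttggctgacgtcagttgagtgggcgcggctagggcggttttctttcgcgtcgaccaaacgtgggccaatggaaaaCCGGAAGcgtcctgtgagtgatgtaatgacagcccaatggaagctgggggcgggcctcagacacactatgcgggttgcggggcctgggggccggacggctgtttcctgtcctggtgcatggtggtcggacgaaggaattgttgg
ZNF41: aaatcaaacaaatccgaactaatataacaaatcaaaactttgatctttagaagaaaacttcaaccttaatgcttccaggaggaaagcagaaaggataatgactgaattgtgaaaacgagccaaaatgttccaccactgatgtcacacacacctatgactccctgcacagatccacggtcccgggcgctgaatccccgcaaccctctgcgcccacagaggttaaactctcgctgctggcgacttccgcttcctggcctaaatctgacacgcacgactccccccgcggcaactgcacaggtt
ZNF217: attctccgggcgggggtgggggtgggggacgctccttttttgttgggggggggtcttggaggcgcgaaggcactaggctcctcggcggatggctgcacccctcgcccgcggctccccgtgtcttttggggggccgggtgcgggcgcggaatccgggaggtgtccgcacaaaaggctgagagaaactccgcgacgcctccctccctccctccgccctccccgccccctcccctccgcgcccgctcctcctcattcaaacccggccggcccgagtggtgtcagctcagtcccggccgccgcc
The match begins 25 bases before the start in ZNF184, 24 in ZNF92, 18 in ZNF107 and 94 in ZNF143, and the ZNF41 and ZNF217 windows hold none. The windows of ZNF92 and ZNF107 were 87.3% identical over 291 aligned bases, and the other 14 pairs of these windows lay between 52.3 and 64.8%. A match is a description of letters, not a site in use, and no binding was measured.

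Of the 24 partners of zinc finger repressors listed, 6 rose (25%, beside 28.3% of all genes), 11 fell (45.8%, beside 22.8%) and 7 did not pass, with a median log2 difference of -0.20 beside 0.10 for all genes. The lowest mean value in the list was 104, and among genes with a mean value of 10 or more 33.4% rose and 28% fell. The list was fixed with earlier results of these data known, and its shares were not tested against either background. TRIM28, the scaffold that KRAB domains bind, went from 1554, 2385 and 2754 normalised reads in controls to 4379, 5135 and 5679 after gefitinib. Control replicate 1 was the lowest, the groups did not overlap, and the rise was 1.22 ± 0.19 (adjusted p = 0.000626 by limma). SETDB1, the histone methyltransferase that TRIM28 recruits, fell from 1086, 1028 and 938 to 735, 682 and 654, or by 0.56 ± 0.10 (adjusted p = 0.00127 by limma). MPHOSPH8, a subunit of the HUSH silencing complex, fell by 1.12 ± 0.12 (adjusted p = 7.5e-05 by limma), and CBX5, the heterochromatin protein HP1 alpha, by 0.76 ± 0.07 (adjusted p = 2.98e-05 by limma). KDM1A, the histone demethylase found with ZNF217, fell from 16762, 16352 and 15636 to 6650.1, 6808 and 6969, or by 1.25 ± 0.07 (adjusted p = 2e-06 by limma). RCOR1, the KDM1A partner CoREST, rose by 0.96 ± 0.07 (adjusted p = 1.07e-05 by limma). The list thus moved in both directions, with the scaffold higher and its methyltransferase lower in the same libraries.

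Of the 141 calls among the ZNF genes, 114 (67 rises and 47 falls) held in every other analysis that tested the gene, and 27 were lost in at least 1. The 8 lost in more than 5 of 20 analyses were ZNF12, ZNF609, ZNF644, ZNF652, ZNF124, ZNF35, ZNF142 and ZNF22, all called higher and named here for that reason. More than 20% of 50-base words were shared with other genes in 15 of the 239 genes, and opposite-strand exons covered more than 10% of exon bases in 35.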

How the data were processed

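RNA-seq libraries from PC9ER cells were analysed, 3 with DMSO and 3 with gefitinib, grouped by their labels. Per the submitters' processing notes, reads were handled with STAR and HTSeq on GRCh38; versions, strand setting and the order of steps are not given in the sources used here. The deposited coding gene table holds a signal value per gene and library, read counts that the authors scaled so that each library sums to 18085800. Dividing each column by the worth of 1 read gave whole reads for 100% of values (tolerance 0.01). The deposited table of all counts gave chromosome and gene type; its 6 columns of libraries that match no label were not used. The members and lists were chosen with earlier results of these data known.

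Differences were tested with limma 3.58.1 (trend, 2-sided, R 4.3.3) on log2(value + 1) over the 15229 of 15376 genes with a read, with Benjamini-Hochberg adjustment and a threshold of 0.05, so that folds of low genes are understated. The script was tested on simulated counts with 1 spread for all genes. It recovered 38.8% of 67 changes of 1.5-fold, 89.6% of 67 of 2-fold and 98.5% of 66 of 4-fold, among 15027 genes tested. In the real data 51.1% of genes were called, which alters the adjustment, so these rates may not carry over. A gene that did not pass may still have changed by a small amount. The 20 other analyses changed the pseudocount, filter, scaling, test (edgeR 4.0.16 on the recovered counts, DESeq2 1.42.0, voom), replicate block, GC or length trend, or left out 1 library.

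Named were the 12 largest rises and 12 largest falls with a mean value of 50 or more and groups that did not overlap, the 5 highest levels, a list of well studied genes, the 3 smallest p of each class, the genes of runs of 6 or more, and TRIM28, SETDB1 and the 4 other partners with the smallest p. Classes came from the longest translated GENCODE v29 coding sequence, in place of the RefSeq proteins planned: KRAB and SCAN by local alignment (Biopython 1.88) to the first 75 residues of ZNF10 (score of at least 55) and the first 150 of ZNF24 (at least 150), and fingers by a C2H2 spacing pattern. Replicates differed beyond sampling noise, with a chi-square per degree of freedom of 5.36 to 63.8, so none was counted as a duplicate. A marker gene of the lists examined is not reported here.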

Additional observations from a re-analysis of the deposited data

How the results depend on the processing

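Over the 20 other analyses the ZNF genes called higher numbered 69 to 94 and those called lower 49 to 65, within 1.5 times of 84 and 57 throughout. As shares of those tested, 29.1 to 39.5% were higher, where 22.9 to 33.6% of all genes were. Lower were 20.7 to 29.7%, where 18.9 to 30.8% of all genes were, so the background moved with the setting. The median log2 difference of 0.167 moved by more than its SD over the 3 gefitinib libraries (0.049) with TMM (0.106) and DESeq2 scaling (0.102), edgeR (0.062), DESeq2 (0.098) and voom (0.064), and upward without control replicate 1 (0.233), where the median of all genes was 0.087. On the recovered reads edgeR called 79 of 219 ZNF genes higher (36.1%) and 65 lower (29.7%), beside 30.5% and 30.8% of all genes. With 1 library left out the median ran from 0.155 to 0.233, and the counts from 69 to 88 higher and 49 to 61 lower. These were 29.1 to 37% higher beside 22.9 to 30.2% of all genes, and 20.7 to 25.6% lower beside 18.9 to 26.4%. The replicate block gave 88 higher (37% beside 29.1% of all genes) and 55 lower (23.1% beside 23.3%). With the GC trend also removed it gave 94 (39.5% beside 32.2%) and 62 (26.1% beside 25.7%). With the length trend removed instead it gave 88 (37% beside 29.2%) and 58 (24.4% beside 23.4%). Same-numbered libraries barely deviated together (correlations 0.0518, 0.0272 and 0.0273), so the numbers were not taken as pairs. Of 2246 values of 114 named genes in these analyses, 2082 kept direction and call, 89 (16 genes) lost the call, 42 (11 genes) gained one and 33 (14 genes, none of them called) changed sign; the cause was not tested. Under the block alone ZNF496 (adjusted p = 0.0449), ZNF629 (0.0244) and ZNF646 (0.0359) gained a call by limma. Leaving out control replicate 1 gave one to ZNF282, ZNF365, ZNF593 and ZNF670, control replicate 3 to ZNF646, gefitinib replicate 1 to ZNF496 and ZNF629, and gefitinib replicate 3 to ZNF503. Changed signs were ZNF117 with edgeR (-0.006), DESeq2 (-0.011) and GC removal with or without the block (-0.029), ZNF467 with a pseudocount of 5 (0.002) and DESeq2 (0.166), ZNF487 with edgeR (-0.022) and DESeq2 (-0.027), ZNF598 with edgeR (-0.021) and DESeq2 (-0.028), and ZNF668 with DESeq2 (-0.0). The others arose on leaving out 1 library, over which the log2 difference of ZNF117 ran from -0.124 to 0.286, ZNF267 from -0.158 to 0.06, ZNF365 from -1.499 to 0.156, ZNF467 from -0.637 to 0.64, ZNF487 from -0.135 to 0.263, ZNF501 from -0.254 to 0.189, ZNF517 from -0.053 to 0.311, ZNF598 from -0.218 to 0.249, ZNF668 from -0.123 to 0.203, ZNF670-ZNF695 from -0.423 to 0.318, ZNF688 from -0.471 to 0.002, ZNF695 from -0.134 to 0.468, ZNF703 from -0.18 to 0.108 and ZNF727 from -0.325 to 0.631. Depth limited ZNF648 (no read), ZNF521, ZNF727 and ZNF670-ZNF695, whose few reads could not show a change. The serum state of the controls is not given, so gefitinib and starvation cannot be told apart if it differed.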

Other observations

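Other letters searched in the 300-base promoter windows gave shares near those of all coding genes in some cases and not in others, as descriptions with no test. The 10-base NRF1 motif occurred in 13.9% of the 194 ZNF windows beside 10.2% of all coding windows, and in 20.3% of genes that rose, 13% of genes that fell and 8.97% of genes that did not pass. The CCAAT box occurred in 43.3% beside 36.0%, and within the ZNF genes in 54.0% of KRAB windows and 31.8% of fingers-only windows. The EGR motif gcgngggcg occurred in 13.4% beside 14.4%, the ZNF143 core actacaa in 6.19% beside 3.47%, the E-box cacgtg in 6.19% beside 9.48%, and the TATA box tataaa in 3.61% beside 6.76%. Both strands were read for each, and matches of different motifs could overlap.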
